A study of Mus musculus with 4 samples.

Results

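Thymic tuft cells were examined in droplet-based single-cell RNA-seq of CD45- thymic stroma. A cell was taken as a tuft cell when the UMIs (unique molecular identifiers, each counting 1 captured RNA molecule) of Trpm5, Gnat3, Avil and Rgs13 summed to at least 3, at least 2 of these 4 genes were detected, and both the endothelial gene Pecam1 and the fibroblast gene Pdgfra were at 0. Barcodes called as cells were kept when over 1000 genes were seen in them and mitochondrial transcripts took less than 20% of their UMIs. It found 74 tuft cells among 10245 kept cells, of 13981 called, with 33 of 1517 kept cells in WT 1, 7 of 474 in WT 2, 7 of 4636 in Z/Z 1 and 27 of 3618 in Z/Z 2. Because these 4 genes chose the cells, their levels are given as a description only.

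The libraries came from untreated 6-month-old C57BL/6 mice. WT 1 and WT 2 carried wild-type Foxn1 (the mock group of the labels), and Z/Z 1 and Z/Z 2 were homozygous for Foxn1LacZ, a hypomorphic allele of the transcription factor that thymic epithelial cells (TECs) need. The comparison asks what a lowered Foxn1 dose goes with in each stromal cell type. The protocol pools 10 to 15 thymi, digests them, depletes CD45+ cells on beads and sorts the rest, and its text gives the sex as female where the sample characteristics give male. Whether the libraries of a group came from separate pools is not stated, so the p-values below measure only the spread between these libraries.

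Tuft cells are chemosensory epithelial cells, best known from gut and airway, that sense luminal compounds through the taste cascade. A ligand acts on a G protein-coupled receptor, the G protein activates the phospholipase Plcb2, calcium leaves internal stores, and the cation channel Trpm5 opens. Tuft cells then release the cytokine IL-25, leukotrienes, prostaglandins and acetylcholine. In the thymus they are one of the mimetic cell types of the medulla, which resemble cells of peripheral tissues, and they depend on the transcription factor Pou2f3.

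The label was checked with 16 tuft genes that the rule did not use (among them Dclk1, Pou2f3, Plcb2, Gng13, Alox5, Alox5ap, Ltc4s, Ptpn6, Sh2d6, Lrmp, Bmx, L1cam, Il25, Chat and Gfi1b). The tuft cells had a median of 11, 13, 11 and 12 of these genes detected in WT 1, WT 2, Z/Z 1 and Z/Z 2. Other Epcam cells, which are the kept cells with at least 2 UMIs of the epithelial adhesion gene Epcam that did not meet the rule and had no Pecam1 or Pdgfra UMI, had a median of 1, 1, 0 and 0. At least 4 of the 16 were found in 71 of the 74 tuft cells. They were also found in 17 of 302, 4 of 73, 8 of 944 and 16 of 764 other Epcam cells. Single cells of that class had up to 11, 5, 5 and 5 of the 16. The other 3 tuft cells had fewer than 4. A cell of WT 1 with 3310 UMIs had 0 of the 16, no Epcam and 8 UMIs of the leukocyte gene Ptprc. A cell of Z/Z 1 with 4699 UMIs also had 0, and a cell of Z/Z 2 with 4471 UMIs had 3. The 2 cells with 0 went against the label. Without these 3 cells the WT share of tuft cells was 4.67-fold that of Z/Z, against 4.48-fold with them.

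The UMIs of the 4 rule genes ran from 3 to 424 per tuft cell with a median of 22. Just inside the threshold, 4, 0, 2 and 2 tuft cells of WT 1, WT 2, Z/Z 1 and Z/Z 2 held 3 to 5 of these UMIs, and had a median of 7.5, 5.5 and 7.5 of the 16 genes in the 3 libraries that had such cells. Just outside it, cells with 2 UMIs from 2 of the genes numbered 1, 2, 3 and 2 and had a median of 0, 1, 0 and 1 of the 16. Cells with at least 3 UMIs from 1 gene alone numbered 8, 2, 13 and 21, with a median of 3.5, 1, 1 and 1.

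The libraries were not fully separate. WT 1 and WT 2 shared 202 called barcodes, and Z/Z 1 and Z/Z 2 shared 249. Among the tuft cells, 2, 3, 0 and 1 cells of WT 1, WT 2, Z/Z 1 and Z/Z 2 carried a barcode that was also called in the other library of the group. One barcode was a tuft cell in both WT libraries, with 43374 UMIs in WT 2 and 1503 in WT 1. Of all Epcam cells with tuft cells included, 303 of 335, 34 of 80, 859 of 951 and 753 of 791 remained without shared barcodes. Results that rest on cells with shared barcodes are given with and without them. A further 28 cells (7, 3, 4 and 14) met the UMI rule but had Pecam1 or Pdgfra UMIs, 11 of them with 1 such UMI and 4 of them, all in Z/Z 2, with 5 or more. Their median of the 16 tuft genes was 11 to 12.5, and results are also given with them kept.

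The tuft cells differed in depth from other TECs. Their median was 7489, 11937, 5540 and 11117 UMIs per cell in WT 1, WT 2, Z/Z 1 and Z/Z 2, against 21736, 19741, 8983 and 9382 in other Epcam cells, and single tuft cells ran from 1503 to 100446. Summed over tuft cells, the libraries held 523080, 156041, 71705 and 491542 UMIs, so values of Z/Z 1 and WT 2 rest on few cells and few molecules. The median mitochondrial share was 6.58%, 5.76%, 3.66% and 3.56% in tuft cells and 2.40%, 2.71%, 2.21% and 2.55% in other Epcam cells. Results with cells thinned to 1 depth are given below where they move a value, and with a limit of 10% mitochondrial UMIs the WT share of tuft cells was 4.13-fold that of Z/Z, on 53 tuft cells.

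Tuft cells made up a larger share of the Epcam cells in both WT libraries than in either Z/Z library. TECs with fewer than 2 Epcam UMIs were outside this denominator unless they met the rule. Whether tuft cells or the other Epcam cells changed in number was not tested. Of the Epcam cells, tuft cells included, they were 33 of 335 in WT 1 (9.85%, 95% exact Clopper-Pearson interval 6.88% to 13.6%) and 7 of 80 in WT 2 (8.75%, 3.59% to 17.2%). In Z/Z 1 they were 7 of 951 (0.736%, 0.296% to 1.51%) and in Z/Z 2 27 of 791 (3.41%, 2.26% to 4.93%). The intervals cover counting error only. The groups did not overlap, and the intervals of Z/Z 1 and Z/Z 2 did not overlap either, so the Z/Z libraries differed from each other by more than counting error.

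**Figure D1:**
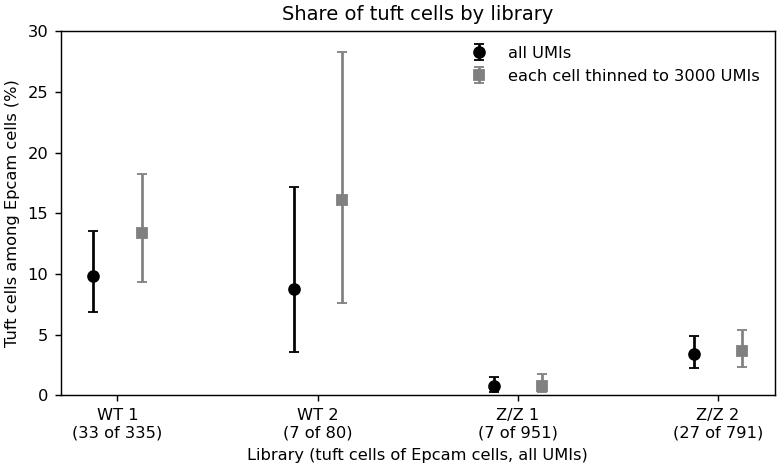
Share of tuft cells among Epcam cells (%, y axis) in each library (x axis), with all UMIs (black circles) and with each cell thinned to 3000 UMIs (grey squares), with 95% exact Clopper-Pearson intervals that cover counting error only. Both WT libraries lie above both Z/Z libraries on either basis, and Z/Z 1 (0.736%) lies below Z/Z 2 (3.41%).

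The mean share was 9.30% ± 0.778 (SD, n = 2 libraries) in WT and 2.07% ± 1.89 (SD, n = 2 libraries) in Z/Z, a 4.48-fold difference. A 2-sided exact permutation test over the libraries gave p = 0.3333, the smallest value that 2 libraries against 2 allow, so the design cannot reach a threshold of 0.05. With each cell thinned to 3000 UMIs, shallower cells left out and the rule applied again, the shares were 13.4%, 16.1%, 0.794% and 3.67%. These were 33 of 247, 9 of 56, 6 of 756 and 24 of 654 Epcam cells. The Epcam, Pecam1 and Pdgfra limits were applied again too, so a cell could enter by losing its Pecam1 or Pdgfra UMIs. Values from thinned cells thus rest on a changed set of cells as well as on 1 depth. Of all kept cells, tuft cells were 2.18%, 1.48%, 0.151% and 0.746%. The filter kept 55.5% and 39.8% of the called cells in WT 1 and WT 2, and 83.4% and 80.4% in Z/Z 1 and Z/Z 2. With a limit of 500 genes in its place, the WT share was 5.04-fold that of Z/Z. The part of the sort and of the digestion was not tested.

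Aire marks medullary TECs that express tissue antigens, from which many mimetic cells derive, and was used as a second denominator. For every 100 cells with at least 2 Aire UMIs there were 30.3 and 35 tuft cells in WT 1 and WT 2, and 18.4 and 62.8 in Z/Z 1 and Z/Z 2. The groups overlapped (exact permutation test, 2-sided, p = 1), and the direction of the difference turned when cells were thinned, when shared barcodes were left out, or without Z/Z 2. The first 2 of these settings rest on few Aire cells. In WT 1, WT 2, Z/Z 1 and Z/Z 2 they numbered 22, 5, 18 and 19 when thinned. Without shared barcodes they numbered 99, 3, 20 and 40, against 109, 20, 38 and 43 with them. Aire cells were 32.5%, 25%, 4.00% and 5.44% of the Epcam cells. The share of tuft cells among Epcam cells was therefore lower in both Z/Z libraries, whereas no direction could be given for tuft cells relative to Aire cells.

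The genes by which tuft cells stood apart from other Epcam cells are described without a test, since the cells were chosen by markers of that identity. Levels are UMIs of a gene per 1000000 summed UMIs of a class in a library (CPM, with ribosomal protein and haemoglobin genes left out). They were set against the other Epcam cells of the same library for the 15955 genes with at least 50 UMIs in both classes together. Of these genes 492 (3.08%) were at least 2-fold higher in tuft cells in each of the 4 libraries, and 1748 (11%) at least 2-fold lower. The median log2 difference over all of them was −0.28. Counts below leave out the 4 rule genes, and genes under the UMI filter are not counted in either direction. A gene with no tuft cell UMI counts as lower, so that for genes of low level the depth of WT 2 and Z/Z 1 can set that call.

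Of 25 genes of taste signalling, 13 passed the filter and 5 were higher in each library. Gng13, the gamma subunit of the taste G protein, was at 1337, 2642, 4002 and 1218 CPM in tuft cells of WT 1, WT 2, Z/Z 1 and Z/Z 2, against 6.37 to 32.7 in other Epcam cells. Its partner Gnb3, the beta subunit, was at 451, 756, 277 and 272 CPM, against 0.255 to 1.36. The phospholipase Plcb2, which the G protein activates, was at 453, 368, 262 and 164 CPM, against 0.0849 to 1.72. These 3 genes of the cascade were thus far higher in tuft cells in every library, although 208 of the 260 Gng13 UMIs of Z/Z 1 lay in 1 cell.

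Downstream of Plcb2, the calcium store receptor Itpr2 was at 687, 667, 1354 and 671 CPM, against 91.2 to 141. Itpr3, the store receptor known from taste buds, was at 65.0, 136, 15.4 and 42.6 CPM, against 15.6 to 25.4, and was not higher in Z/Z 1. The phospholipase Plcg2, which acts below tyrosine kinases, was the fifth gene of this list that was higher in each library. The G protein subunit Gnai2, common to many cells, was at 422 to 600 CPM against 228 to 437. Taste receptors were barely seen: the bitter receptor Tas2r108 had a UMI in 8, 1, 1 and 1 tuft cells, and Tas2r105 in 6, 3, 0 and 0.

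The rule genes themselves were at these levels. Trpm5, the channel at the end of the cascade, was at 508, 633, 646 and 442 CPM in tuft cells and at most 1.11 in other Epcam cells. Gnat3, the taste G protein alpha subunit gustducin, was at 1317, 1546, 616 and 505 CPM and at most 1.72. Avil, an actin-bundling protein of the apical tuft, was at 1221, 1546, 970 and 900 CPM against 6.88 to 21.1. Rgs13, a regulator of G protein signalling, was at 1191, 1253, 1631 and 671 CPM and at most 0.573. Trpm5 and Avil were each found in 71 of 74 tuft cells and Rgs13 in 64, but Gnat3 in 34.

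Of 19 transcription factors of tuft cells, 14 passed the filter and 7 were higher in each library. Pou2f3, the POU-domain factor that tuft cells require, was at 346, 538, 277 and 189 CPM, against 7.05 to 17.8 in other Epcam cells. 1810046K07Rik (Pou2af2), a coactivator of Pou2f3, was at 433, 272, 246 and 281 CPM, against 0.201 to 12.4. Ehf, an epithelial ETS-family factor, was at 904, 960, 770 and 631 CPM, against 132 to 168. The other 4 were Spib, Hmx3, Nfatc1 and Elf3. Runx1 (509 to 662 CPM against 115 to 299) and Sox9 (355 to 631 against 137 to 343) missed the 2-fold limit in at least 1 library, and Sox4 was at 272 to 714 CPM against 223 to 382.

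Pou2f3 belongs to the POU factors that bind the octamer ATGCAAAT, and the members' promoters were therefore searched for it. The motif, or its reverse complement ATTTGCAT on the same strand, was looked for in the 250 bases before each transcription start of RefSeq (GRCm38.p6). It was present for 490 of 27025 genes (1.81%). Of the 50 genes of the 7 tuft lists that were at least 2-fold higher in tuft cells in each library and had a promoter entry, 5 held it (10%), and of all 120 genes of these lists, 10 did (8.33%). The windows of those 5 genes, and of Rgs21, on which the genotype comparison turns, are printed 5′ to 3′ on the strand of the gene, with the motif in capitals. Rgs21 was not higher in each library. All 6 genes lie on the minus strand. In GRCm38 coordinates, the windows are chr9:51328940-51329030 for 1810046K07Rik, chr6:65144871-65144930 for Hpgds, chr14:102982764-102982823 for Kctd12, chr17:35081240-35081313 for Ly6g6d, chr1:135258587-135258646 for Elf3 and chr1:144567834-144567893 for Rgs21.
1810046K07Rik: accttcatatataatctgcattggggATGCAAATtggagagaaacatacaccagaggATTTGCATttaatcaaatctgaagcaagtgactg
Hpgds: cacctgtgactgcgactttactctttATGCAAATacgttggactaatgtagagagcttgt
Kctd12: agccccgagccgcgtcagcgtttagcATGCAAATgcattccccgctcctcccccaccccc
Ly6g6d: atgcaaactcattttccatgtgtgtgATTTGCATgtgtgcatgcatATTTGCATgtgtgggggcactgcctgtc
Elf3: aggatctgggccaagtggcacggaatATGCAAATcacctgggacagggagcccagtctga
Rgs21: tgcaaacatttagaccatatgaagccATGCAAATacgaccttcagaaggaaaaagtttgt
The coactivator gene and Ly6g6d held 2 octamers each in these windows, from 86 and 55 bases before the start in the former and from 48 and 28 in the latter, and the other 4 held 1. A match describes these letters only, and no binding was measured.

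Tuft cells act on their surroundings through lipid mediators and acetylcholine. Of 19 genes that make or carry these, 17 passed the filter, 6 were higher in each library and 2 (Alox15 and Tph1) were lower. Alox5ap, which presents arachidonic acid to 5-lipoxygenase, was at 427, 415, 708 and 426 CPM in tuft cells and at most 1.22 in other Epcam cells. Ltc4s, which makes leukotriene C4, was at 276, 320, 662 and 346 CPM, against 2.21 to 29.2. Alox5, the 5-lipoxygenase, was at 362, 307, 216 and 231 CPM, against 0.573 to 6.28. These 3 genes, which take arachidonic acid to leukotriene C4, were thus all high in the tuft cells of all 4 libraries.

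On the prostaglandin side, Hpgds, which makes prostaglandin D2, was at 447, 232, 508 and 242 CPM, against 4.02 to 32.1. Ptgs1, the constitutive cyclooxygenase, was higher in each library too, while Ptgs2, the inducible one, was not. Pla2g4a, which frees arachidonic acid, was at 250, 307, 200 and 177 CPM, against 21.2 to 161, above 2-fold in 3 of the 4 libraries. Chat, which makes acetylcholine, was found in 20, 6, 4 and 16 tuft cells. The vesicular transporter Slc18a3 and the choline transporter Slc5a7 were at 0 UMIs in all 74 tuft cells, which does not show that they were absent at this depth.

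Among 19 cytokines 2 were higher in each library and 5 lower. Il25, the cytokine by which tuft cells call type 2 immunity, was found in 14, 4, 3 and 9 tuft cells at 165, 74.9, 123 and 159 CPM. In other Epcam cells it was found in 0, 0, 2 and 2 cells and in fibroblasts in 0, 0, 0 and 2. Il10, an anti-inflammatory cytokine, was at 114, 286, 46.2 and 49.4 CPM, against 4.93 to 18.9. It was found in 17, 3, 1 and 9 tuft cells. Il25 and Il10 were thus each found in 30 of the 74 tuft cells and in every library, and 52 of the 71 Il25 UMIs of Z/Z 2 lay in 1 cell. Il7, the thymopoietic cytokine, was at 81.3, 0, 46.2 and 150 CPM against 104 to 170.

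Of 25 surface receptors, 20 passed the filter and 2 were higher in each library. Kit, the receptor for stem cell factor, was at 380, 245, 292 and 92.0 CPM, against 14.8 to 36.1. Il17rb, a subunit of the receptor for IL-25 itself, was at 116, 136, 108 and 80.8 CPM, against 1.41 to 5.17. The subunits that bind IL-4 and IL-13 were near the level of other Epcam cells, with Il13ra1 at 129 to 267 CPM against 157 to 218 and Il4ra at 81.3 to 136 CPM against 51.6 to 93.8. Tnfrsf11a, the RANK receptor of medullary TECs, was at 30.8 to 298 CPM against 82.7 to 264.

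Of 28 genes of kinases, phosphatases and adaptors otherwise known from blood cells, 26 passed the filter and 18 were higher in each library. Lrmp, an endoplasmic reticulum protein of lymphocytes, was at 1660, 2642, 2001 and 1010 CPM in tuft cells, against 0.510 to 13.8 in other Epcam cells. Bmx, a Tec-family kinase, was at 1825, 1267, 1678 and 819 CPM, against 0.573 to 5.44. Fyb, a T cell adaptor, was at 1116, 858, 1570 and 1030 CPM, against 13.7 to 63.9. Lrmp, Bmx and Fyb were found in 67, 69 and 65 of 74 tuft cells.

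Most markers of the leukocyte lists were low or at 0 beside them. Ptprc, the gene of CD45, had 22, 0, 0 and 13 UMIs in 7, 0, 0 and 6 tuft cells. Coro1a and Tyrobp of the same list were lower than in other Epcam cells in each library. The 8 mast cell and basophil genes, Cpa3, Fcer1a and Gata2 among them, were at 0 in every tuft cell. The summed level of 15 thymocyte genes was 42.7, 81.7, 0 and 89.7 CPM in tuft cells, against 39.7 to 161 in other Epcam cells, and that of 10 myeloid genes was 6.10 to 98.7 CPM, against 77.3 to 518. The 6 B cell genes summed to 75.2 to 197 CPM, against 435 to 34896, but Cd79b, a subunit of the B cell receptor, was higher in tuft cells in each library, with 13, 11, 1 and 22 UMIs in 7, 5, 1 and 8 tuft cells. The adaptors and kinases of the blood-like list were thus far above the level at which genes of thymocytes and myeloid cells were found in the same cells.

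**Figure D2:**
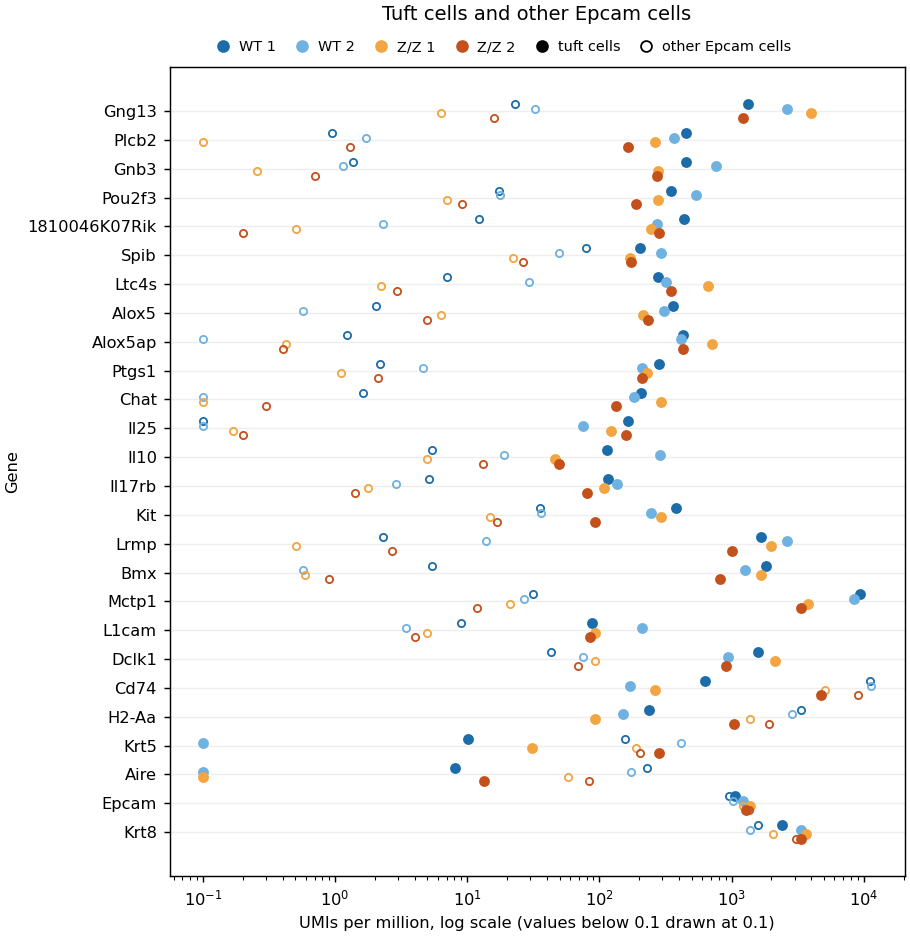
Level of 26 genes (y axis) in tuft cells (filled circles) and other Epcam cells (open circles) of each library (colour), in CPM on a log x axis, with values below 0.1 drawn at 0.1. Taste, leukotriene and blood-like genes lie far to the right in tuft cells of every library, Cd74 and H2-Aa lie to the left, and Epcam and Krt8 lie close together. Epcam UMIs were used to choose the other Epcam cells.

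The apical tuft and its cytoskeleton gave 4 genes of 19 that were higher in each library. Espn, an actin bundler, was at 575, 804, 570 and 626 CPM, against 16.5 to 29.5. Dclk1, a microtubule-associated kinase widely used as a tuft marker, was at 1593, 947, 2124 and 900 CPM, against 42.8 to 92.8. Dclk1 did not separate tuft cells from all stroma, since it was found in 77.4% to 94.9% of fibroblasts and in 81.5% to 85.7% of tuft cells. Cdhr2 and Cdhr5, the adhesion proteins between microvilli, were the others. The simple epithelial keratins Krt8 (2400 to 3632 CPM against 1379 to 3071) and Krt18 (1983 to 4128 against 1212 to 4805) were not 2-fold higher in each library.

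Of 34 further genes shared by tuft cells of other organs, 31 passed the filter and 18 were higher in each library. Mctp1, a calcium-binding membrane protein, was the most abundant of them at 9326, 8397, 3771 and 3363 CPM, against 11.9 to 31.6, and was found in 71 of 74 tuft cells. Cd24a was at 984, 1478, 1416 and 770 CPM, against 189 to 345, and the annexin Anxa4 at 1146, 1669, 800 and 615, against 62.7 to 139. Tmem176a and Tmem176b, a pair of membrane proteins, did not reach 2-fold in each library. Over the 31 genes that passed the filter the median log2 difference was 2.14, against −0.28 over all genes that passed it.

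Outside the lists, genes with at least 20 tuft cell UMIs were ordered by the fold in their lowest library, with other Epcam cells under 3 UMIs set to 3 and no filter on both classes. The 15 highest included A630073D07Rik, Srpx2, Sgcz, Cbln4, St18, Ovol3, Ano7, Gm4952, 1700003M07Rik, Rasgrf2, Mroh2a, Nrg4, Gm38563 and Ccn3. St18, a zinc finger transcription factor, was at 1358, 1505, 923 and 346 CPM, against 2.29 to 21.6. Cbln4, a secreted synaptic organiser, had 25, 17, 3 and 13 UMIs in tuft cells and 0 in all other Epcam cells. Nrg4, an EGF-family ligand, was at 238, 61.3, 262 and 213 CPM, against 1.15 to 6.12, and was found in 42 tuft cells.

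MHC class II and TEC genes lay on the other side. The 14 genes of MHC class II presentation had a median log2 difference of −2.29. Cd74, the invariant chain, was at 634, 170, 262 and 4739 CPM in tuft cells and at 11067, 11380, 5130 and 9030 in other Epcam cells. H2-Aa, a class II alpha chain, was at 238, 150, 92.3 and 1048 CPM, against 1382 to 3342. None of the 14 was at least 2-fold lower in each library, because Z/Z 2 stood apart from the other libraries. Foxn1 itself had 6, 1, 0 and 20 UMIs in tuft cells, or 12.2, 6.81, 0 and 44.9 CPM, against 55.9 to 98.0 in other Epcam cells.

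Of 29 TEC genes, 28 passed the filter, none was higher in each library and 9 were lower. Aire, which drives tissue antigens in the medulla, had a UMI in 4, 0, 0 and 2 tuft cells, at 8.13, 0, 0 and 13.5 CPM against 58.1 to 231. Fezf2, Krt15, Ly6a, Prss16, Ccl25, Cxcl12, Pdpn and Otog were the other 8. The epithelial junction genes Cldn4 and Cldn3 were kept, at 231 to 301 CPM against 91.7 to 230 and at 154 to 283 against 75.7 to 166. Epcam was at 1059, 1219, 1370 and 1295 CPM against 963 to 1356. Other Epcam cells were chosen by at least 2 Epcam UMIs and tuft cells were not. The closeness of the Epcam levels thus depends on that choice. The 29 TEC genes summed to 3046, 2384, 2940 and 7389 CPM in tuft cells, against 8250, 7114, 6177 and 7195 in other Epcam cells, so the sum was lower in 3 libraries and not in Z/Z 2. In Z/Z 2, 1 tuft cell held 1696 UMIs of these genes and another held 407. Both had over 1% of their UMIs from MHC class II genes.

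Of 14 cell cycle genes, 5 had no UMI in any tuft cell, and all 14 together had 57, 14, 4 and 28 UMIs in the tuft cells of the 4 libraries, too few in Z/Z 1 to read a direction for single genes. Of 17 genes that respond to tissue dissociation, 5 were lower (Fos, Fosb, Atf3, Ier3 and Hspa1a), with a summed level of 6491, 5836, 7249 and 11654 CPM against 10399 to 27004. Among lists for other mimetic classes, the ciliated-cell dynein Dnah5 was higher in each library, and the 5 ciliated-cell genes summed to 79.3, 191, 354 and 146 CPM, against 8.41 to 59.4. None of the genes of the ionocyte, neuroendocrine, microfold, goblet, keratinised, enterohepatocyte and muscle lists was higher in each library. Some sums were higher in tuft cells of 1 library, as for the microfold genes in Z/Z 1 (1293 CPM against 728). The muscle genes summed to 24.4, 129, 15.4 and 15.7 CPM, against 27.1, 6.31, 6.20 and 10.8, and so were higher in WT 2, Z/Z 1 and Z/Z 2. In WT 2, 1 tuft cell held 19 UMIs of the muscle genes. The 6 genes of mural cells (pericytes and vascular smooth muscle) summed to 28.5, 6.81, 30.8 and 332 CPM. Other Epcam cells had 446, 184, 297 and 277, so the tuft cell sum was higher in Z/Z 2. The fibroblast, endothelial and innate lymphoid sums were below those of other Epcam cells in each library. Pdgfra and Pecam1 were at 0 by the rule. In Z/Z 2, 1 tuft cell of 3466 UMIs held 48 mural and 19 fibroblast UMIs. It had 4 rule gene UMIs and 7 of the 16 tuft genes.

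The tuft cells differed among themselves in a group of genes that went with Gnat3, noticed after values were seen. Of these cells, 34 of 74 had a Gnat3 UMI, and 13 had at least 10. Rgs21, a regulator of G protein signalling known from taste cells, was found in 9, 2, 0 and 0 tuft cells of WT 1, WT 2, Z/Z 1 and Z/Z 2. All 11 of these cells also held Gnat3. In other Epcam cells Rgs21 was found in 1, 1, 1 and 0 cells of 302, 73, 944 and 764, and in fibroblasts in 1, 0, 0 and 0.

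**Figure D3:**
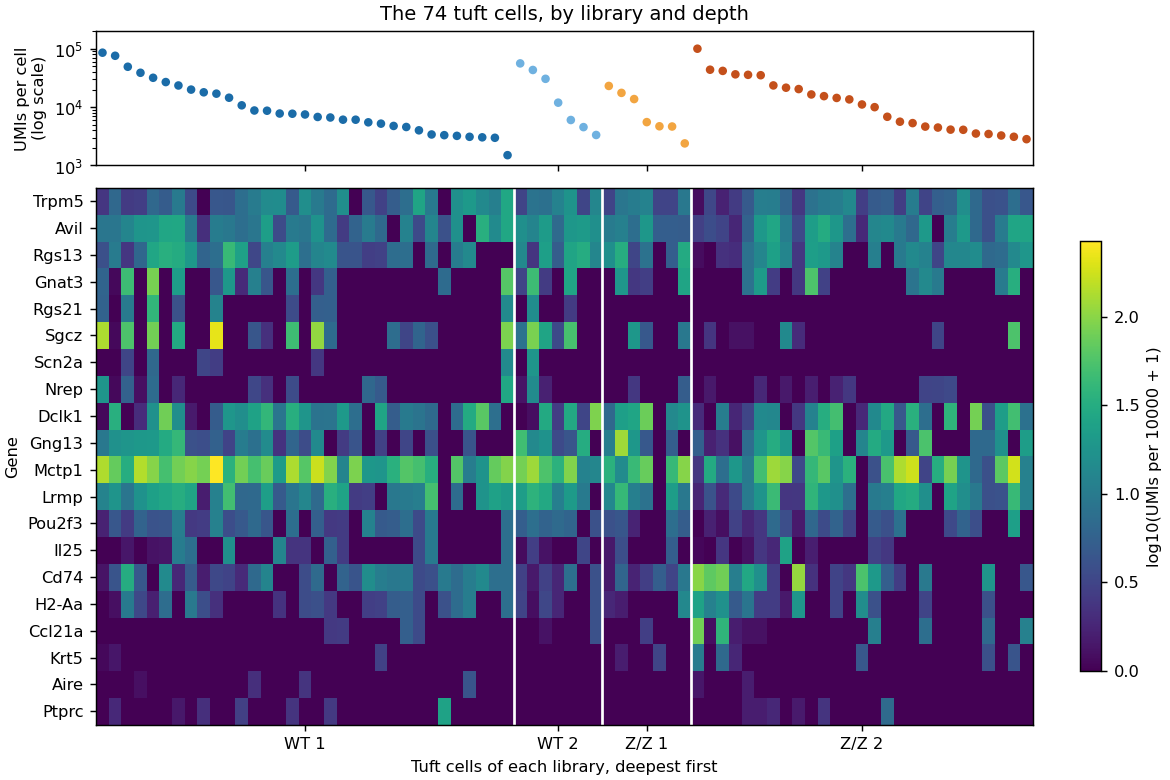
The 74 tuft cells (columns), grouped by library and ordered by UMIs per cell (upper panel, log scale), with the level of 20 genes (rows) as log10 of UMIs per 10000 plus 1 (colour). Rgs21 and most of the Scn2a signal sit in WT tuft cells that also hold Gnat3 and Sgcz, and a few of the deeper Z/Z 2 cells hold high Cd74 and H2-Aa.

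Within WT, the 11 tuft cells with Rgs21 are set beside the 29 without it as a description. The genes named here were chosen after their values were seen, and the sums rest on few cells. Gnat3 was at 3138 CPM in the 11 cells, 158 in the other 29 WT cells and 519 in the 34 Z/Z cells. Sgcz, a sarcoglycan of the dystrophin complex, was at 10110, 345 and 166 CPM in these classes, and every one of the 11 cells held it. The deepest of the 11 cells held 1146 of their 2626 Sgcz UMIs. Nrep was at 997, 36.9 and 31.3 CPM, and the sodium channel Scn2a at 427, 10.5 and 0. Plcb2 was at 681, 264 and 176 CPM and Tas2r105 at 80.9, 2.64 and 0, the latter in 8, 1 and 0 cells. The cells with Rgs21 thus also had the higher levels of the other taste genes named.

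Other genes ran the opposite way or not at all. Tafa1, a secreted chemokine-like protein, was at 65.5 CPM in the 11 cells, 1247 in the other WT cells and 58.7 in Z/Z cells, and 265 of its 473 UMIs in the other WT cells lay in 1 cell of WT 2. Dclk1 was at 562, 2049 and 1056 CPM. Malrd1 and Spock3 had no UMI in the 11 cells and were at 332 and 301 CPM in the 29. Trpm5 (477, 578 and 468 CPM), Il25 (146, 142 and 155), Gng13 (1502, 1730 and 1572) and Chat (208, 198 and 155) were at nearly the same level in all 3 classes. Depth differed between the classes, with a median of 17035, 6096 and 10558 UMIs per cell, and its part in the split was not tested.

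A few cells carried much of this signal. In WT 1 the Rgs21 UMIs of the 9 cells were 122, 44, 41, 19, 7, 3, 3, 2 and 2. In WT 2, 61 of the 62 UMIs lay in a single cell, which is the cell whose barcode was also a tuft cell in WT 1, and the other cell had 1. That WT 2 cell also held 195 Gnat3, 367 Sgcz and all 76 Scn2a UMIs of its library. The same barcode in WT 1 held 2 Rgs21, 9 Gnat3, 13 Sgcz and 2 Scn2a UMIs at 1503 UMIs in all. With shared barcodes left out, Rgs21 had 200, 1, 0 and 0 UMIs.

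In the tuft cells, Rgs21 was the only one of 5711 genes tested that was called between the genotypes (0.0175% of the genes called lower in Z/Z, and 0% called higher, by edgeR's quasi-likelihood test on the 4 UMI sums with Benjamini-Hochberg adjustment). It had 243, 62, 0 and 0 UMIs, or 494, 422, 0 and 0 CPM, and the groups did not overlap. How many of the tested genes did not overlap between the groups was not counted. Its pooled WT level of 477 CPM was 81.3-fold a floor of 3 counts over both Z/Z libraries (5.87 CPM), with an adjusted p of 0.0456 by edgeR. That floor takes UMIs as independent. Since 122 of the 243 UMIs of WT 1 and 61 of the 62 of WT 2 lay in 1 cell each, the fold is no lower bound. By cells, 11 of 40 WT tuft cells held an Rgs21 UMI and 0 of 34 Z/Z tuft cells, which allows up to 8.82% of cells with a UMI by counting error alone and sets no limit on cells expressing the gene. At an unadjusted p under 0.05, 207 genes were higher and 229 lower, and DESeq2 called 3 higher and 8 lower.

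This call was near the threshold and moved with the choice of cells. The adjusted p of Rgs21 by edgeR was 0.0760 with empty-droplet RNA subtracted and 0.0638 with the rule at 5 UMIs, and over the other alternatives that tested it by edgeR or DESeq2, with every library kept, it ran from 6.78e-17 to 0.0493. With shared barcodes left out or with cells thinned, Rgs21 fell below the count filter and was not tested. It was not absent from Z/Z tuft cells when the 28 cells set aside for Pecam1 or Pdgfra UMIs were kept: 3 such Z/Z cells held 6 Rgs21 UMIs, giving 333, 314, 3.08 and 5.33 CPM and a log2 difference of −6.08 (adjusted p 0.00995 by edgeR).

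The Z/Z tuft cells did hold Gnat3, the gene with which Rgs21 went in WT. It was found in 15 of 33, 4 of 7, 4 of 7 and 11 of 27 tuft cells. Gnat3 itself was at 1317, 1546, 616 and 505 CPM, but at 505, 982, 892 and 696 CPM when each cell was thinned to 3000 UMIs, so that the groups did not overlap in the former and overlapped in the latter. They also overlapped without shared barcodes, at 1441, 600, 616 and 622 CPM. As a rule gene, Gnat3 is described without a test.

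**Figure D4:**
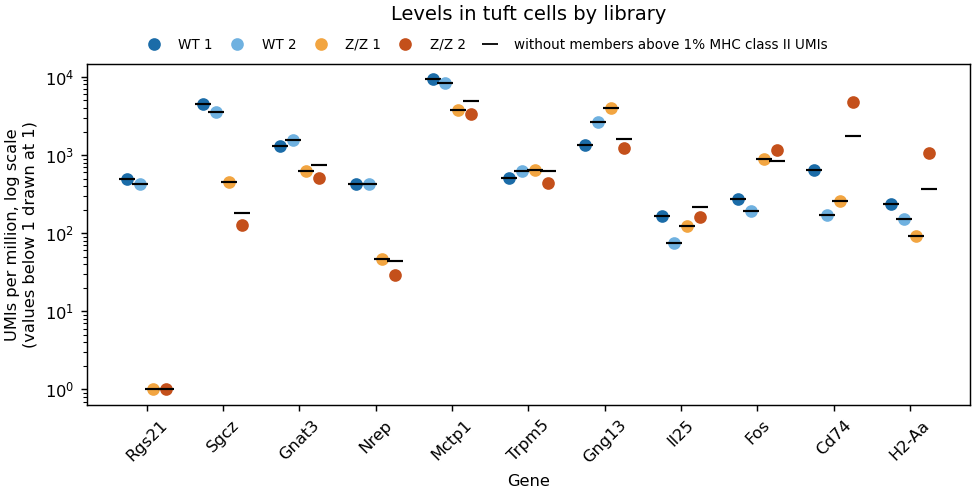
Level of 11 genes (x axis) in the tuft cells of each library (coloured circles), in CPM on a log y axis with values below 1 drawn at 1. Black dashes give the same without the 4 tuft cells above 1% MHC class II UMIs. Rgs21 is at 0 in both Z/Z libraries, Sgcz and Nrep are lower there, and Cd74 and H2-Aa are high in Z/Z 2.

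Sgcz, Nrep and Mctp1 were lower in both Z/Z libraries than in either WT library but did not pass the test, although each did under some other settings. With 2 libraries against 2, such an order arises often without a genotype difference. The share of tested genes that had it was not counted, so it is a description only. Sgcz was at 4552, 3521, 446 and 126 CPM (log2 difference −3.97 ± 0.608, SE, adjusted p 0.224 by edgeR). In each library 1 cell held much of it, with 51.2%, 71.0%, 86.2% and 50% of the Sgcz UMIs of WT 1, WT 2, Z/Z 1 and Z/Z 2. With shared barcodes left out it was at 2613, 1360, 446 and 155 CPM (−2.89, adjusted p 0.640 by edgeR), and with cells thinned at 2433, 2121, 535 and 267 CPM (−2.82, adjusted p 0.0115 by edgeR). Nrep, a small protein of the nervous system, was at 427, 429, 46.2 and 29.2 CPM (−3.67 ± 0.518, adjusted p 0.179 by edgeR), with 71.4% and 93.7% of its WT 1 and WT 2 UMIs in 1 cell each. Without shared barcodes Nrep was at 135, 0, 46.2 and 36.0 CPM, where the groups overlapped, and was not tested. By DESeq2 the adjusted p was 3.48e-07 for Sgcz and 0.00109 for Nrep. Mctp1 was at 9326, 8397, 3771 and 3363 CPM (−1.33 ± 0.310, adjusted p 0.256 by edgeR), and at 6834, 6482, 5410 and 5215 CPM when thinned (−0.45, adjusted p 0.881 by edgeR). Without shared barcodes Mctp1 was at 8265, 4239, 3771 and 4105 CPM (−0.73, adjusted p 0.9995 by edgeR). It passed without Z/Z 1 (adjusted p 0.00549 by edgeR) and with the cells that had Pecam1 or Pdgfra UMIs kept (−2.32, adjusted p 0.0368 by edgeR).

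The tuft gene lists had no other called member. Of the 25 taste genes 10 were tested, with 7 below 0 and a median log2 difference of −0.73, and Rgs21 was the 1 called. Of the 34 genes shared with tuft cells of other organs 26 were tested, with 16 below 0, a median of −0.48 and 0 called. The blood-like list had 20 tested, 10 on either side and a median of 0.01. Its kinase Matk, chosen after its values were seen, was at 138, 116, 30.8 and 24.7 CPM (−2.29 ± 0.554, adjusted p 0.269 by edgeR). The transcription factors had 13 tested, 9 below 0 and a median of −0.30, and the lipid and acetylcholine genes 9 tested, 6 below 0 and a median of −0.20. The median over all genes tested was −0.0024. A p that misses the threshold does not show that the genotypes were alike in these lists.

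Antigen presentation genes were higher in a few tuft cells of Z/Z 2. The MHC class II list took a median of 0.103%, 0.0600%, 0.0638% and 0.111% of the UMIs of a tuft cell, against 0.684% to 1.35% in other Epcam cells and 2.09% to 3.08% in Aire cells. It exceeded 1% in 0, 0, 0 and 4 tuft cells. These 4 cells had 11117 to 100446 UMIs, 3 to 23 rule gene UMIs and 8 to 13 of the 16 tuft genes. The medullary keratin Krt5 was found in 3 of them, the chemokine Ccl21a of medullary TECs in 2 and Aire in 1. Whether a droplet with more than 1 cell held them was not tested.

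**Figure D5:**
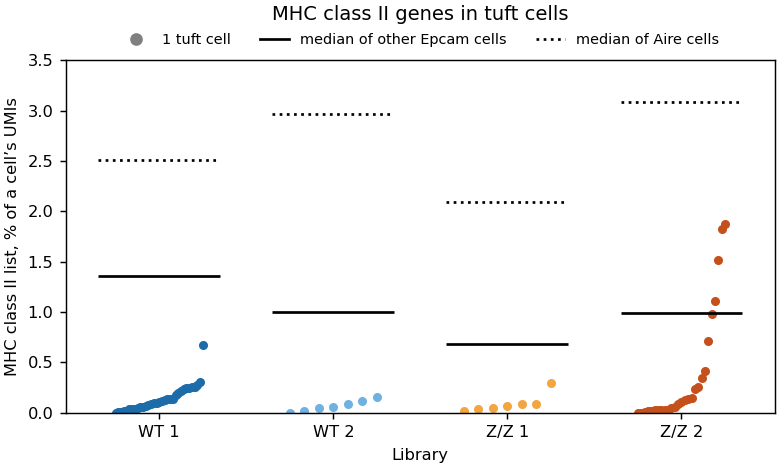
MHC class II genes as a percent of the UMIs of each tuft cell (circles) by library, with the medians of other Epcam cells (solid lines) and of Aire cells (dotted lines). All but 4 tuft cells, all of Z/Z 2, lie at or below 1%, most of them below the median of other Epcam cells.

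These cells set the level of their library. Ccl21a had 5, 2, 1 and 978 UMIs in tuft cells, and 797 of the 978 lay in the deepest cell. Cd74 differed between the genotypes by a log2 value of 2.60 ± 1.07 (adjusted p 0.589 by edgeR), by −0.72 without Z/Z 2 and by 3.48 without Z/Z 1 (adjusted p 2.61e-12 by edgeR). Without the 4 cells, Cd74 was at 1745 CPM in Z/Z 2 rather than 4739, H2-Aa at 362 rather than 1048 and Ccl21a at 77.2 rather than 2194. All 8 MHC class II genes tested lay above 0, with a median log2 difference of 1.45 and 0 called. Empty-droplet RNA, estimated from thymocyte receptor UMIs, was 1.27%, 2.43%, 0% and 17.01% of the tuft cell UMIs, from 4, 4, 0 and 20 such UMIs, the last again in Z/Z 2.

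Genes that respond to dissociation were above 0 in 14 of 17, with a median log2 difference of 0.98 and 0 called. The 4 tuft cells of Z/Z 2 above 1% MHC class II UMIs held 557, 1095, 351 and 582 UMIs of these genes. Other tuft cells of Z/Z 2 held up to 488. Fos, an immediate early gene, was at 276, 191, 877 and 1173 CPM in tuft cells (2.11 ± 0.434, adjusted p 0.240 by edgeR) and at 1017, 1531, 3566 and 2730 in other Epcam cells. Without the 4 cells the Fos difference in tuft cells was 1.84 (adjusted p 0.224 by edgeR). Thinned to 3000 UMIs, the difference in tuft cells was 0.37 (adjusted p 0.903 by edgeR), whereas DESeq2 on all UMIs called it (adjusted p 0.0451).

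The genotype difference was also compared between tuft cells and other Epcam cells, in a fit of 8 UMI sums with the library as a block. It differed for 174 of 12030 genes (1.45%), 151 with a more positive and 23 with a more negative value in tuft cells. None of the 174 was called for genotype in the tuft cells alone, 96 were called in other Epcam cells, where 1730 of 16753 genes (10.3%) were, and 45 had fewer than 20 tuft cell UMIs in all. With Aire cells in place of other Epcam cells, 0 genes were called by edgeR, with 333 higher and 227 lower at an unadjusted p under 0.05. Aire cells numbered 109, 20, 38 and 43 in WT 1, WT 2, Z/Z 1 and Z/Z 2, against 302, 73, 944 and 764 other Epcam cells. With them 9949 genes were tested. The count thus differed between these comparison classes, and the part of their size in this was not tested.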

How the data were processed

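The authors sequenced 3′ libraries of CD45- thymic cells, mapped them to mouse mm10 with Cell Ranger (version 7.01 in the submitters' processing notes) and deposited raw UMI counts per gene and barcode, intronic reads included. The deposited counts were not normalized. Here, 111 ribosomal protein and haemoglobin features of 32285 were left out of sums and CPM. The members and gene lists were chosen with earlier results of these data known. UMIs were summed per library over tuft cells and other Epcam cells. Genotype was tested with edgeR 4.0.16 (TMM, filterByExpr, quasi-likelihood test, Benjamini-Hochberg adjustment at 0.05), shares with exact permutation tests (scipy 1.17.1). DESeq2 1.42.0 was an alternative. The study's own tests used cells as units. Sums over libraries were used instead. No doublet caller was run. The 3.9% of cells with the most UMIs were left out as an alternative, after the multiplet rate the study gives. Empty-droplet RNA was taken from uncalled barcodes of 10 to 100 UMIs. Genes with values are up to 5 per list, by mean level in tuft cells, the 15 outside genes (not all are reported here), the genes called by genotype, the 10 smallest p of the difference between cell classes, the rule genes and Foxn1. Plcb2, Gnb3, Itpr3, 1810046K07Rik and others named beyond this rule were chosen after their values were seen. The fits were tested on simulated counts. Promoter windows come from RefSeq (GRCm38.p6).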

Additional observations from a re-analysis of the deposited data

Results flagged for a closer look

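The genotype difference (Z/Z minus WT, log2) was unlike in tuft cells and other Epcam cells for these 10 genes, which had the smallest p of the edgeR test of that difference. The difference between the classes is given for each gene, and its cause was not tested. All 10 had an adjusted p between 4.06e-06 and 0.000362 by edgeR. For 8 of the 10, the tuft cells of at least 1 library held no UMI at all, so a fitted value depends on the prior count and is no bound.

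Iglc1, an immunoglobulin light chain gene, differed by 8.61, with 9, 0, 0 and 18 UMIs in the tuft cells of WT 1, WT 2, Z/Z 1 and Z/Z 2 and 19100 UMIs in the other Epcam cells of WT 1. Igha, an immunoglobulin heavy chain gene, differed by −11.35, with 38, 2, 0 and 1 tuft cell UMIs and 3957 in the other Epcam cells of Z/Z 2. Cdh8, a cadherin, differed by −13.72, with 20, 28, 0 and 0 tuft cell UMIs against 45, 23, 767 and 388. Klk7, a skin protease, differed by 16.07 on 7 tuft cell UMIs in 1 cell of Z/Z 2. Krtdap, of keratinising epithelium, differed by 8.58, with 1, 0, 0 and 23 tuft cell UMIs.

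Ubd, a ubiquitin-like gene, differed by 6.90, with 4, 0, 0 and 122 tuft cell UMIs in 4, 0, 0 and 3 cells. Sorcs1, a sorting receptor, differed by 8.12, and all 92 of its Z/Z 2 tuft cell UMIs lay in 1 cell. Cyp2a5, a cytochrome P450, differed by 5.64, with 9, 0, 8 and 91 tuft cell UMIs. Cntnap2, a neuronal adhesion gene, differed by 4.34, with 42.7, 54.5, 185 and 141 CPM in tuft cells and 360, 274, 60.4 and 40.01 in other Epcam cells. Tmem45b, a membrane protein, differed by 4.93, with 58.9, 129, 662 and 141 CPM in tuft cells and 18.5, 10.3, 1.36 and 1.71 in other Epcam cells. Cntnap2 and Tmem45b were the genes of the 10 with a UMI in tuft cells of every library.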

How the results depend on the processing

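The share of tuft cells stayed lower in Z/Z under all 13 alternatives that kept every library (log2 ratio −2.72 to −1.94) and with each library left out in turn (−3.66 to −1.45). The tuft to Aire cell ratio (log2 0.32) turned to −1.05 with thinned cells and −0.72 without shared barcodes, and ran from −0.83 to 0.94 with a library left out, the lowest without Z/Z 2. Genes called higher in Z/Z in tuft cells (0) numbered 3 by DESeq2, 135 without a filter on low counts and 123 with cells with Pecam1 or Pdgfra UMIs kept. Genes called lower (1) numbered 8, 90 and 52 under these settings, 0 with empty-droplet RNA subtracted, with the rule at 5 UMIs or without shared barcodes, and 2 without the members above 1% MHC class II UMIs. Leaving out each library in turn gave 3 to 246 higher and 16 to 108 lower (3 and 16 without WT 1, 51 and 33 without WT 2, 246 and 108 without Z/Z 1, 25 and 59 without Z/Z 2). The spread is then estimated from fewer libraries and the lone library of a group is assumed to vary like the other group. Genes with an unlike genotype difference in tuft and other Epcam cells (174) numbered 25 by DESeq2, 0 against Aire cells, 26 thinned, 79 without shared barcodes and 46 to 331 with a library left out (99 without WT 1, 331 without Z/Z 1, 46 without Z/Z 2). Genes higher in tuft cells in each library (492) numbered 238 at 4-fold, 311 thinned and 560 to 620 with a library left out. Genes lower (1748) numbered 1101 at 4-fold, 922 thinned and 1670 to 2899, the highest without Z/Z 2. Cd74 (log2 difference 2.60) ran from −0.72 to 3.94 and H2-Aa (1.60) from −1.15 to 2.38 with a library left out, both lowest without Z/Z 2, and H2-Aa turned to −0.30 thinned. Among the 8 genes whose genotype difference is given, 29 values under an alternative passed the test where the reported one had not, and 2 of Rgs21 no longer passed it. The cause of these changes was not tested. The alternatives on cells with Pecam1 or Pdgfra UMIs, on members above 1% MHC class II UMIs and on members with few tuft genes were chosen after seeing the data.

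The replicate numbers of WT and Z/Z name libraries only. The deviations of WT 1 and Z/Z 1 from their group means had a correlation of −0.08 over 5711 genes, with only 2 pairs. With the replicate number as a block, 1 gene was called higher and 9 lower, and the block gave a log2 ratio of shares of −2.55.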

Other observations

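Interferon-responsive genes were moderate in tuft cells. Their 17 genes summed to 3343, 3950, 2724 and 5739 CPM in the tuft cells of WT 1, WT 2, Z/Z 1 and Z/Z 2, against 7268 to 8414 in other Epcam cells. None was 2-fold higher in each library, and Gbp2, a guanylate-binding protein, and Cxcl9, a chemokine, were 2-fold lower in each. Of the 12 tested for genotype in tuft cells, 8 lay above 0 with a median log2 difference of 0.16, and 0 were called.

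Genes of other mimetic classes had many of their UMIs in few tuft cells. Gp2, a receptor of microfold cells, had 16, 5, 72 and 21 UMIs in 6, 2, 2 and 3 tuft cells, and 62 of the 72 of Z/Z 1 lay in 1 cell. Hnf4g, a factor of gut epithelium, had 6, 2, 6 and 66 in 4, 1, 2 and 2 tuft cells, and 63 of the last lay in 1 cell of Z/Z 2. These genes were chosen after their values were seen.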
